A study of Mus musculus with 14 samples.

Results

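The Slc7a11 and glutathione defence genes are 10 genes that serve cystine uptake, glutathione synthesis and recycling, and peroxide removal: Slc7a11, Slc3a2, Gclc, Gclm, Gss, Gsr, Gpx1, Gpx4, Txnrd1 and Nfe2l2. They were chosen by symbol, out of 19937 genes that had a probe set with a single symbol on the array. Slc7a11 heads the set because its thymus level differed between the genotypes in earlier results from these arrays, and the question was whether the other cystine, glutathione or Nrf2 target genes moved with it. The Slc7a11 values that led to its choice, which are its thymus genotype difference, its difference between the tissues and the contrast between those effects, are therefore given as a description with no test. All 10 genes passed the filter on low values, a log2 level above 6.76 on at least 2 of 14 arrays, as did 13641 genes in all. Slc7a11 passed only through its thymus arrays, since 0 of 9 spleen arrays exceeded that level.

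Sorted T cells of C57BL/6 mice, either wild type (WT) or labelled ENK KO, were measured on 14 Affymetrix whole-transcript arrays, 1 per sample. The series title is about the homeobox factor Engrailed-2 as chronic myelogenous leukaemia progresses to blast crisis of the T lineage, while the labels do not spell out ENK. They state neither the allele behind it nor any treatment. CD4+CD8+ thymocytes came from WT mice aged 7 months (n = 3, replicates 38, 7 and 32) and from ENK KO mice aged 7 and 2 months (n = 2, replicates 29 and 1). CD8+ spleen cells came from WT mice aged 7 months (n = 4, replicates 40, 37, 34 and 22) and from ENK KO mice aged 7, 2, 6, 9 and 2 months (n = 5, replicates 31, 6, 28, 25 and 3). Each 2-month-old mouse was female and no other ENK KO mouse was, so that age and sex coincide within ENK KO.

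Slc7a11 encodes xCT, the transporter that brings cystine into the cell in exchange for glutamate, and it works as a dimer with the heavy chain CD98, encoded by Slc3a2. Cystine is reduced to cysteine, which glutamate-cysteine ligase (catalytic subunit Gclc, modifier subunit Gclm) and glutathione synthetase (Gss) build into glutathione. Glutathione peroxidases spend glutathione on peroxides and glutathione reductase (Gsr) restores it, while the transcription factors Nrf2, encoded by Nfe2l2, and ATF4 are known activators of Slc7a11 under oxidative stress and amino acid shortage.

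Several arrays and labels need to be known before the values. The library labelled spleen ENK KO replicate 28 had a Cd4 log2 level of 12.20 against 6.61 to 6.92 on the other spleen arrays. Its Cd8a level was 6.78 against 12.06 to 12.53, and its mean over 6 regulatory T cell markers was 10.12 against at most 8.43 on the other spleen arrays. These coreceptor levels go against its label, and the members' results that rest on the spleen ENK KO group are therefore given with and without it. Spleen WT replicate 22 is labelled female but had an Xist level of 5.90, against 12.36 to 13.37 on the other 4 female arrays and 5.52 to 6.38 on the male arrays. All thymus arrays had Cd4, Cd8a and Cd8b1 at 12.89 or higher. En2 averaged 6.01 in WT and 6.07 in ENK KO thymocytes and 6.49 and 6.71 in spleen cells. These means lie under the filter level and check nothing, 1 array labelled spleen ENK KO (replicate 31) stood above it at 7.87, and the labels do not say which part of the gene its probes cover. En1 and Penk group means, between 5.82 and 6.86, lay under or close to it.

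The promoter sequences bear on these questions because Nrf2 and ATF4 act through short elements in the promoters of their targets. Of the 10 genes, 8 have an entry in the RefSeq promoter table of assembly GRCm38.p6, with 13 start sites in all, and the 250 bases before each start site were searched on both strands. The amino acid response element bound by ATF4 was written as TGATGNAAN and the core of the antioxidant response element bound by Nrf2 as TGACNNNGC. The 250 bases before the Slc7a11 start (chr3:50443614-50443863, minus strand) and the Gclm start (chr3:122245307-122245556, plus strand) are shown 5′ to 3′, with matches to either motif in capitals, because they hold the amino acid response matches and an antioxidant match for comparison.
Slc7a11: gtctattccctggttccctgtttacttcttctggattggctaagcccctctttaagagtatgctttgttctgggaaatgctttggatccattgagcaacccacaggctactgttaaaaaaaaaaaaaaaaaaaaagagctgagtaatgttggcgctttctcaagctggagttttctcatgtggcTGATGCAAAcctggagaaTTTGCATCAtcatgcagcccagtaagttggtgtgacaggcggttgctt
Gclm: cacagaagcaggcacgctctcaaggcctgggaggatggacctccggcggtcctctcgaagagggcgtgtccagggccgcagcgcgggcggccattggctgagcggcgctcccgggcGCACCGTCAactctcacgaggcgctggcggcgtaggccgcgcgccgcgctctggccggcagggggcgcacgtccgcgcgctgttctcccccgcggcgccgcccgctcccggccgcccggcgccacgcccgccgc
The Slc7a11 window held 2 matches to the amino acid response element, TGATGCAAA from 66 to 58 bases before the start and its reverse complement TTTGCATCA from 48 to 40 bases before it, and 0 to the antioxidant core. The other members with an entry had no match to the amino acid response element in any window. At least 1 such match occurred in 1129 of 32851 promoter windows of this length (3.44%), and 2 or more occurred in 13 (0.0396%). Gclm had 1 antioxidant core match, GCACCGTCA on the other strand from 134 to 126 bases before its start. Nfe2l2 (TGACTCCGC, 240 to 232 bases before) and 1 of the 3 Txnrd1 windows (GCTTTGTCA on the other strand, 92 to 84 bases before) also held 1 each, against 10.2% of all windows. Such a match is a stretch of letters and does not show that a factor binds there. Nor does the lack of a match show that a factor does not act on the gene, since only 250 bases and 1 pattern per element were searched.

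The transporter subunit Slc7a11 was higher in ENK KO than in WT thymocytes, the contrast from which it was chosen. Of the other 9 genes 0 passed the threshold, where 0.0147% of all genes tested did. That count does not set the 9 genes apart from genes at large. Slc7a11 averaged 2.45-fold more in ENK KO cells. The other 9 genes differed by at most 1.14-fold, in either direction. WT thymocytes had Slc7a11 log2 levels of 10.42 (replicate 38), 10.72 (replicate 7) and 10.86 (replicate 32), a mean of 10.66 ± 0.23 (SD, n = 3). ENK KO thymocytes had 12.16 (replicate 29) and 11.75 (replicate 1), a mean of 11.95 ± 0.29 (SD, n = 2). Both ENK KO arrays thus lay above every WT array, and the 7-month-old male lay above the 2-month-old female. How many of all genes tested separated in this way was not computed, so nothing is read from the separation. The Slc7a11 difference was 1.29 on the log2 scale (SE 0.14). It ranked as the fourth highest and, by size in either direction, in place 10 of 13641 genes. The female ENK KO array, from a 2-month-old mouse, exceeded the female WT array, from a 7-month-old mouse, by 1.03. The male ENK KO array exceeded the mean of the 2 male WT arrays by 1.52, again with 1 ENK KO array. Since both ENK KO arrays lay above every WT array, the order within each sex was fixed by that and adds nothing. In bulk samples like these a higher level per cell and more cells with the transcript cannot be told apart.

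In this comparison 0.0147% of all genes tested had an adjusted p under 0.05, which were 2 genes, both higher in ENK KO. Slc7a11 was 1 of them, but it was chosen from this contrast, so that nothing is read from it. Of the other 9 genes, 5 had a difference above 0 and 4 below it, 0 passed the threshold and 0 had an unadjusted p under 0.05, where 481 genes (3.53%) did. Their differences ran from -0.06 to 0.19 with a median of 0.02, and 90% of all genes tested lay between -0.17 and 0.16 with a median of 0.00. Between 7-month-old mice alone, which leaves 1 ENK KO array, the Slc7a11 difference was 1.498.

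**Figure D1:**
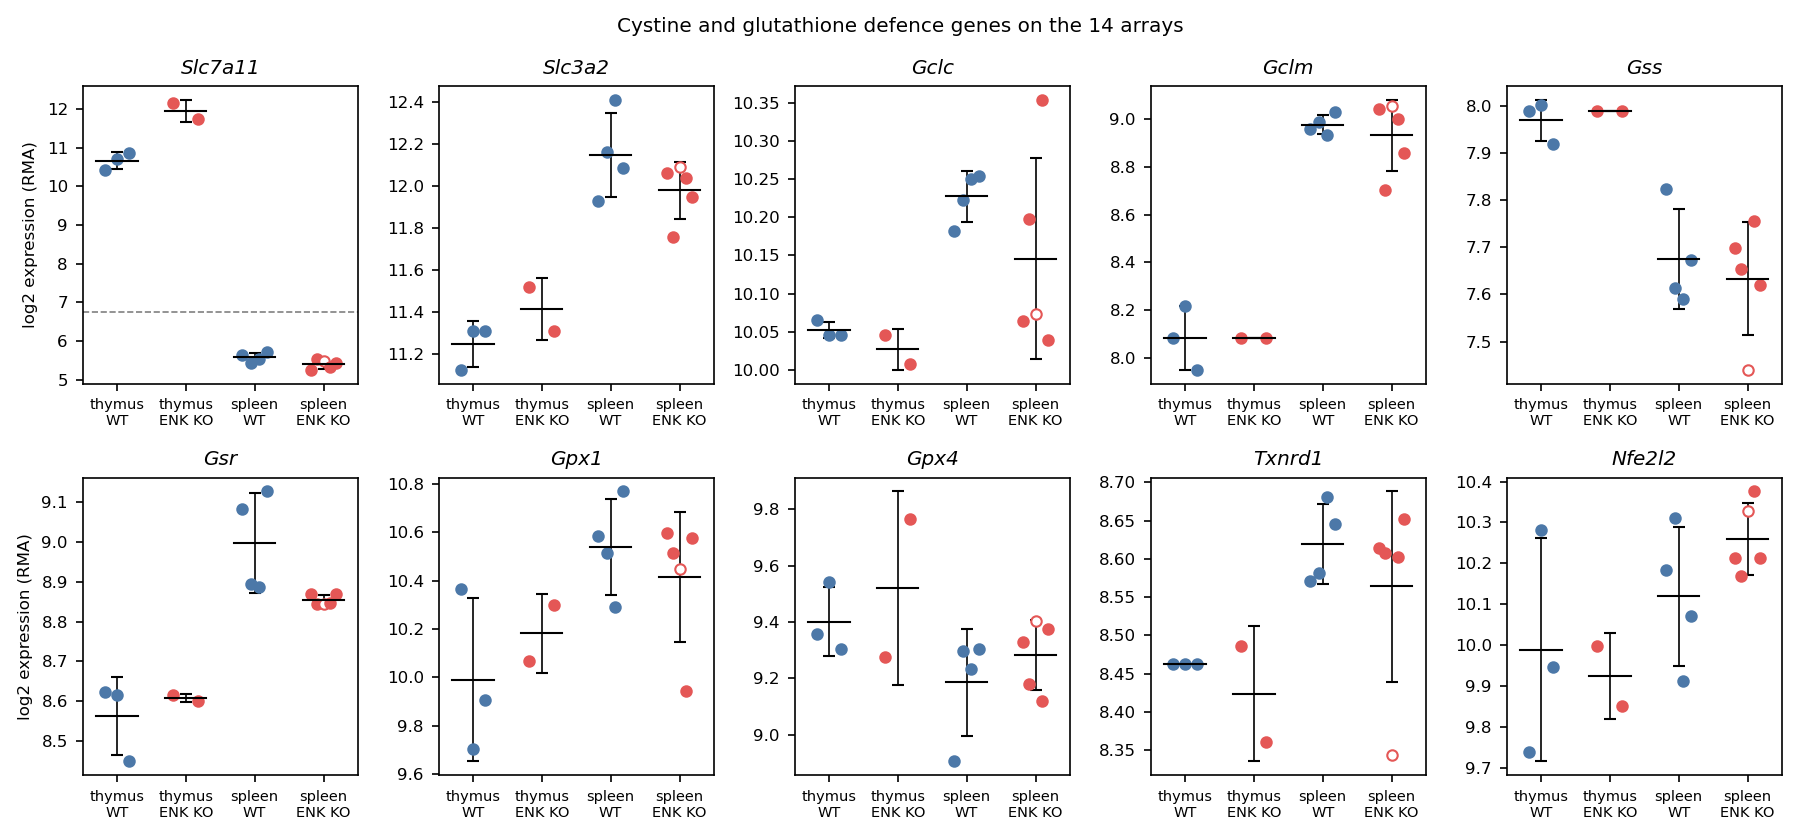
Log2 level (vertical axis) of each of the 10 genes on every array, by group along the horizontal axis, with bars for the mean ± SD. Open circles mark spleen ENK KO replicate 28, and the dashed line in the Slc7a11 panel marks the filter level of 6.76. Slc7a11 lies at 10.42 to 12.16 on the thymus arrays and at 5.25 to 5.71 on the spleen arrays. Each other gene stays above the filter level in every group, and its panel does not reach down to that level.

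The heavy chain of the transporter did not follow xCT in size. Slc3a2, which also pairs with the leucine transporter Slc7a5, stood at 11.12, 11.31 and 11.31 in WT thymocytes and at 11.52 and 11.31 in ENK KO thymocytes. The groups met at 11.31, and only ENK KO replicate 29 was clearly above. The difference was 0.17 (SE 0.13, 95% interval -0.12 to 0.45).

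Glutathione synthesis genes were close to equal in the thymocytes of both genotypes. Gclc, the catalytic subunit that sets the rate of the pathway, stood at 10.07, 10.05 and 10.05 in WT and at 10.05 and 10.01 in ENK KO thymocytes, a difference of -0.03 (SE 0.08). Gclm, the modifier subunit, stood at 8.08, 8.22 and 7.95 in WT and at 8.08 on both ENK KO arrays, and Gss, which completes the tripeptide, stood at 7.99, 8.0 and 7.92 in WT and at 7.99 on both ENK KO arrays. The ENK KO values of Gclc, Gclm and Gss lay within the WT range or overlapped with it. The 95% interval of the Gclm difference ran from -0.22 to 0.22 and that of Gss from -0.17 to 0.21. Exactly equal values on several arrays are common in this table: 81.2% of probe sets had a value that occurred on 2 or more arrays, so an SD of 0 is no measure of precision here. Gclc, Gclm and Gss held such repeats on the thymus arrays, and their SEs and intervals rest on the same values.

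The recycling and peroxide genes showed the same lack of a clear difference in thymocytes. Gsr, which regenerates reduced glutathione, stood at 8.62, 8.62 and 8.45 in WT and at 8.62 and 8.60 in ENK KO, a difference of 0.05 (SE 0.08). Gpx1, the cytosolic peroxidase, stood at 10.36, 9.70 and 9.91 in WT and at 10.07 and 10.30 in ENK KO, the widest spread of the set among WT thymocytes. Its difference of 0.19 (SE 0.21) was smaller than that spread. Gpx4, which reduces lipid peroxides in membranes and so restrains ferroptosis, stood at 9.36, 9.54 and 9.31 in WT and at 9.28 and 9.76 in ENK KO. The ENK KO values of Gpx4 thus fell on either side of all WT values, with a difference of 0.12 (SE 0.15) that became -0.13 without replicate 1 and 0.36 without replicate 29. The other probe set annotated to Gpx4 gave 0.10.

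The thioredoxin arm and the regulator itself averaged no higher in ENK KO thymocytes. Txnrd1, the cytosolic thioredoxin reductase and a known Nrf2 target, stood at 8.46 on all 3 WT arrays and at 8.49 and 8.36 in ENK KO, a difference of -0.04 (SE 0.08). Nfe2l2, which encodes Nrf2, stood at 9.74, 10.28 and 9.95 in WT and at 9.999 and 9.85 in ENK KO, a difference of -0.06 (SE 0.14). Both ENK KO values of Nfe2l2 lay inside the WT range. Nrf2 is controlled mainly through the stability of its protein, which these arrays do not measure.

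**Figure D2:**
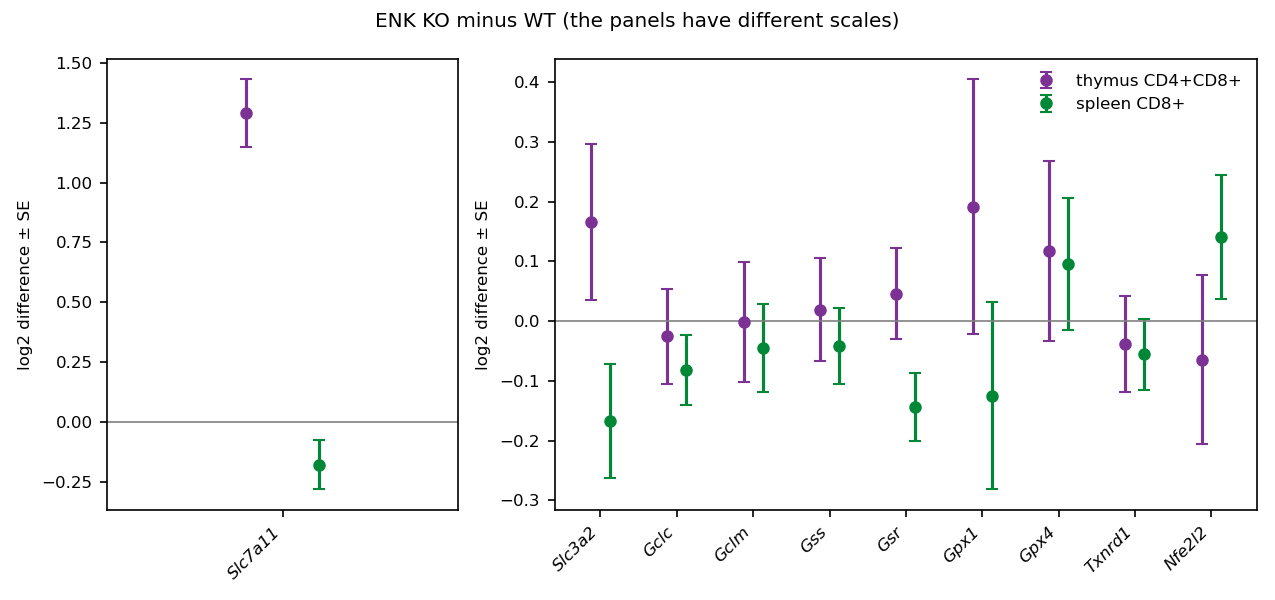
ENK KO minus WT log2 difference (vertical axis) of the 10 genes (horizontal axis) in thymus CD4+CD8+ and spleen CD8+ cells, with error bars for the SE, in panels of different scale. Slc7a11 stands at 1.29 in thymocytes, and the other 9 genes lie between -0.06 and 0.19 there and between -0.17 and 0.14 in spleen cells.

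In spleen CD8+ cells 0 of the 10 genes, Slc7a11 included, changed between the genotypes by limma's test, where 1 gene of all tested (0.00733%) did. The same count was 0 without replicate 28, where 2 genes (0.0147%) passed. At an unadjusted p under 0.05 there was 1 member, Gsr, against 8.37% of all genes. Slc7a11 stood at 5.63, 5.44, 5.52 and 5.71 in WT and at 5.25, 5.53, 5.47, 5.32 and 5.42 in ENK KO spleen cells, so the groups overlapped and every value lay under the filter level. Its difference was -0.18 (SE 0.10, 95% interval -0.40 to 0.05, adjusted p = 0.662), and -0.20 without replicate 28 (adjusted p = 0.557). At so low a level an array compresses differences, so that these values bear little on whether Slc7a11 differed in spleen cells.

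Slc3a2, the CD98 heavy chain, stood at 11.93, 12.16, 12.41 and 12.09 in WT and at 12.06, 11.76, 12.09, 12.04 and 11.95 in ENK KO spleen cells. Its difference was -0.17 (SE 0.10, adjusted p = 0.658), and -0.20 without replicate 28 (adjusted p = 0.523). The lowest value came from an ENK KO array and the highest from a WT array, with overlap between them.

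The spleen groups of Gsr did not overlap. How many of all genes tested did the same was not computed, so nothing is read from this. WT cells had 9.08, 8.89, 8.89 and 9.13, and ENK KO cells had 8.87, 8.84, 8.84, 8.85 and 8.87, a spread of 0.01 (SD) around 8.85. All 5 ENK KO arrays were thus lower than the WT arrays, 2 of which were only just above them. The difference of -0.14 (SE 0.06, 95% interval -0.27 to -0.02) had an unadjusted p of 0.0246 and an adjusted p of 0.595, or 0.496 without replicate 28, and did not pass.

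The remaining synthesis genes overlapped in spleen. Gclc differed by -0.08 (SE 0.06, adjusted p = 0.71), or -0.06 without replicate 28 (adjusted p = 0.73). Gclm differed by -0.0449 (SE 0.07, adjusted p = 0.868), or -0.0755 without it (adjusted p = 0.738), and Gss by -0.04 (SE 0.06, adjusted p = 0.857). Without replicate 28, which had the lowest Gss level of all arrays (7.44), Gss differed by 0.01 (adjusted p = 0.973). The widest 95% interval of the 3, that of Gclm, ran from -0.20 to 0.11.

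Gpx1 stood at 10.59, 10.51, 10.29 and 10.77 in WT spleen cells and at 10.60, 10.51, 10.45, 9.94 and 10.58 in ENK KO spleen cells, where replicate 25 was far below the other arrays. Its difference was -0.12 (SE 0.16, adjusted p = 0.831), and -0.13 without replicate 28 (adjusted p = 0.806). Gpx4 differed by 0.10 (SE 0.11, adjusted p = 0.812), or 0.07 without replicate 28 (adjusted p = 0.867), while its other probe set gave -0.08, so that the direction depended on the probe set. Txnrd1 stood at 8.57 to 8.68 in WT and at 8.60 to 8.65 on 4 ENK KO arrays, but at 8.34 on replicate 28. Its difference of -0.06 (SE 0.06, adjusted p = 0.797) became -0.0005 without that library (adjusted p = 0.996). Nfe2l2 stood at 10.18, 10.31, 9.91 and 10.07 in WT and at 10.21, 10.17, 10.33, 10.38 and 10.21 in ENK KO, a difference of 0.14 (SE 0.10, adjusted p = 0.716), and 0.12 without replicate 28 (adjusted p = 0.714).

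The contrast between the genotype effects, spleen minus thymus, was -1.47 for Slc7a11 (SE 0.17), and -1.49 without replicate 28, a description since its thymus values had chosen the gene. The other 9 genes lay between -0.33 (Slc3a2) and 0.21 (Nfe2l2), or -0.36 and 0.19 without replicate 28. In this contrast 1 of all genes tested passed (0.00733%), and it was Slc7a11, from which nothing is read. Of the other 9 members 0 passed and 0 had an unadjusted p under 0.05, against 2.99% of all genes.

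The populations differed by more than the genotypes did in Slc7a11, Slc3a2, Gclm, Gss and Gsr. Slc7a11 was high in thymocytes and below the filter level in spleen CD8+ cells, with measured log2 differences of -5.09 in WT and -6.56 in ENK KO (-6.57 without replicate 28). With the spleen level set at the filter level, Slc7a11 was at least 15-fold higher in WT thymocytes and at least 36.7-fold higher in ENK KO thymocytes. The order of its group means was ENK KO thymocytes, WT thymocytes, WT spleen cells and ENK KO spleen cells, and only the spleen groups overlapped. Its partner Slc3a2 went the other way and was higher in spleen. The share of all genes tested without overlap between the populations was not computed. Nothing is therefore read from a lack of overlap, here or in the next paragraphs. Of the other 9 genes 5 rose and 1 fell in WT spleen cells relative to WT thymocytes, and 4 rose and 1 fell in the ENK KO cells. Of all genes tested, 68.6% were called in WT (30.5% higher and 38.2% lower in spleen) and 64.4% in ENK KO (27.4% and 37.1%), and these shares do not set the members apart from genes at large. Whether the tissues were processed jointly is not known, and the part of separate processing in the population differences was not tested.

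Slc3a2 rose by 0.90 in WT spleen cells (SE 0.11, 1.86-fold, adjusted p = 8.6e-06) and by 0.56 in ENK KO spleen cells (SE 0.12, 1.48-fold, adjusted p = 0.00107). Every spleen array was above every thymus array. Without replicate 28 the ENK KO difference was 0.54 (adjusted p = 0.00222). Gclm rose by 0.89 in WT (SE 0.08, 1.86-fold, adjusted p = 7.36e-07) and by 0.85 in ENK KO (SE 0.09, 1.80-fold, adjusted p = 3.51e-06). Its spleen levels ran from 8.70 to 9.06 and its thymus levels from 7.95 to 8.22, again with no overlap. Without replicate 28 the ENK KO difference was 0.82 (adjusted p = 7.08e-06). Gclc, the catalytic partner of Gclm, rose by only 0.17 in WT (SE 0.07, 1.13-fold, adjusted p = 0.0328) and did not pass in ENK KO (0.12, SE 0.07, adjusted p = 0.17, or 0.14 and 0.127 without replicate 28). The Gclc call in WT was lost when any of thymus WT replicates 38, 7 or 32 or spleen WT replicates 37, 34 or 22 was left out (adjusted p 0.055 to 0.0768).

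Of the 9 genes other than Slc7a11, Gss was the one that fell in spleen cells, by 0.29 in WT (SE 0.07, 1.23-fold, adjusted p = 0.00272) and by 0.35 in ENK KO (SE 0.08, 1.28-fold, adjusted p = 0.00156), or by 0.31 without replicate 28 (adjusted p = 0.00116). Its thymus levels were 7.92 to 8.0 and its spleen levels 7.44 to 7.82, with no overlap. The enzymes of the pathway's successive steps, Gclm and Gss, thus differed in opposite directions between the populations.

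Gsr rose by 0.44 in WT spleen cells (SE 0.06, 1.35-fold, adjusted p = 4.9e-05) and by 0.25 in ENK KO spleen cells (SE 0.07, 1.19-fold, adjusted p = 0.00776). The latter call held without replicate 28 (0.25, adjusted p = 0.011) and was lost without thymus ENK KO replicate 1 (adjusted p = 0.0544). Gpx1 rose by 0.55 in WT (SE 0.18, 1.46-fold, adjusted p = 0.0151) and did not pass in ENK KO (0.23, SE 0.20, adjusted p = 0.313, or 0.22 and 0.363 without replicate 28). The WT call of Gpx1 was lost without thymus WT replicate 7 (adjusted p = 0.0826) or 32 (adjusted p = 0.0518). Gpx4 did not pass in either genotype (-0.22, SE 0.13, adjusted p = 0.145 in WT and -0.24, SE 0.14, adjusted p = 0.147 in ENK KO, or -0.27 and 0.119 without replicate 28), but passed in ENK KO without thymus ENK KO replicate 29 (-0.48, adjusted p = 0.0187) or with its probe sets averaged (adjusted p = 0.0483).

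Txnrd1 depended on the library labelled replicate 28. With it, the differences of 0.16 in WT (SE 0.07, adjusted p = 0.0533) and 0.14 in ENK KO (SE 0.07, adjusted p = 0.113) did not pass. Without it they passed, at 0.16 (adjusted p = 0.0055) and 0.20 (adjusted p = 0.0035), the former because all arrays share an estimate of the spread. Nfe2l2 rose in ENK KO spleen cells by 0.34 (SE 0.13, 1.26-fold, adjusted p = 0.0364), a call lost without spleen ENK KO replicate 28 (adjusted p = 0.0577) or 25 (adjusted p = 0.0667) and without thymus ENK KO replicate 29 (adjusted p = 0.0644) or 1 (adjusted p = 0.226). In WT it did not pass (0.13, SE 0.12, adjusted p = 0.341), but did without thymus WT replicate 7 (0.28, adjusted p = 0.036). The members called without replicate 28 were 6 higher and 1 lower in WT, where 70.1% of all genes passed (31.3% higher, 38.8% lower), and 4 higher and 1 lower in ENK KO, where 65% did (27.9% and 37.2%).

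**Figure D3:**
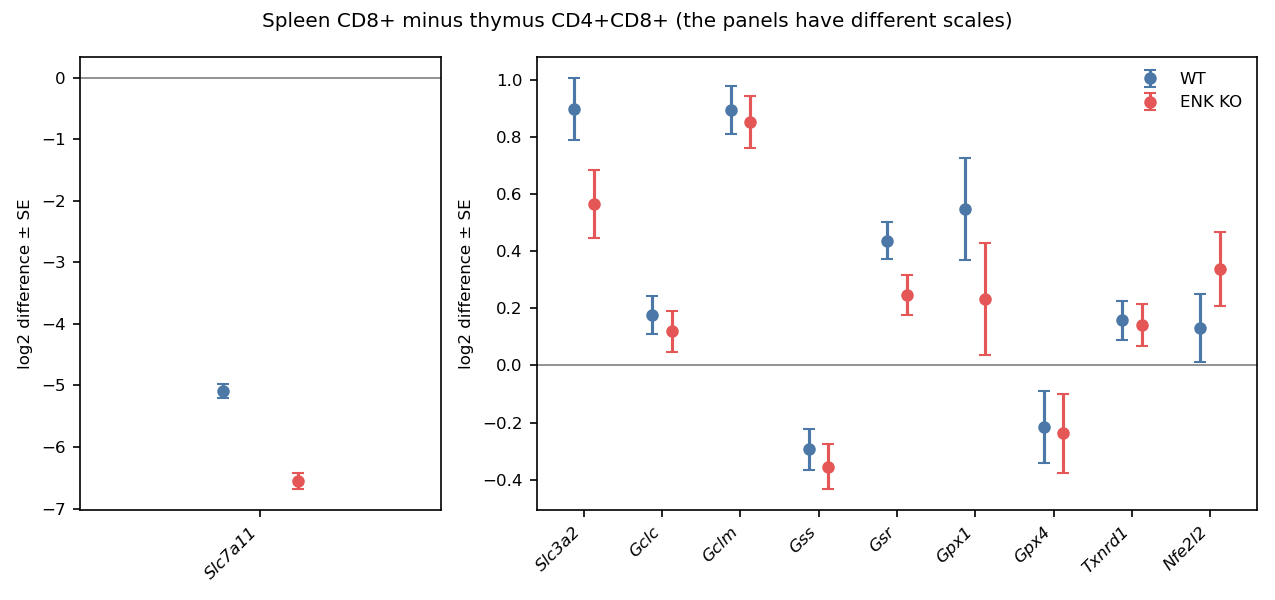
Spleen CD8+ minus thymus CD4+CD8+ log2 difference (vertical axis) of the 10 genes (horizontal axis) within WT and within ENK KO, with error bars for the SE, in panels of different scale. Slc7a11 stands at -5.09 and -6.56, Slc3a2 and Gclm between 0.56 and 0.90, and Gss at -0.29 and -0.35.

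Other genes of the same pathways were read from 10 lists of which 163 genes were tested. Between the genotypes 0 of them passed the threshold in thymocytes or in spleen cells. Of all genes tested 0.0147% passed in thymocytes and 0.00733% in spleen cells, so this count does not set the lists apart. In thymocytes the 163 genes had a median difference of -0.0028, and 9 (5.52%) had an unadjusted p under 0.05 against 3.53% of all genes tested. A single gene of the 163 differed by more than Slc7a11 there. That gene was Mgst2, which encodes a microsomal glutathione transferase. It stood at 7.11, 8.17 and 7.52 in WT and at 8.48 and 9.36 in ENK KO thymocytes, a difference of 1.32 (SE 0.46). In ENK KO spleen cells Mgst2 was higher too, by 0.59 (SE 0.33), and did not pass. Mgst2 lies on chromosome 3 like Slc7a11 and is the eighth tested gene after it in gene order.

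The targets of Nrf2 lay on both sides of 0. Of 26 tested Nrf2 targets 12 differed upward and 14 downward in ENK KO thymocytes, with a median of -0.01, close to that over all genes tested. The share of all genes above 0 was not computed, and the part of Nrf2 in the Slc7a11 difference was not tested. The largest differences among the Nrf2 targets were 0.26 for Trim16 (SE 0.24), -0.24 for Fth1, the ferritin heavy chain (SE 0.11), and 0.22 for the glutathione transferase Gsta4 (SE 0.26). The 16 partners and regulators of Nrf2, such as its inhibitor Keap1 (-0.11, SE 0.13) and the repressor Bach2 (-0.12, SE 0.11), lay between -0.12 and 0.09.

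The ATF4 and amino acid response genes lay on both sides of 0 in thymocytes. Of 27 tested, 12 lay above 0 and 15 below, with a median of -0.01, close to that over all genes tested. The share of all genes above 0 was not computed, and the part of ATF4 in the Slc7a11 difference was not tested. The largest difference on this list was that of Eif2ak3, the kinase PERK of the unfolded protein response, at -0.60 (SE 0.14). It stood at 10.42 to 10.76 in WT and at 9.95 and 9.9975 in ENK KO. Ppp1r15a, a phosphatase subunit that relieves the same response, differed by 0.35 (SE 0.39), and the mitochondrial folate enzyme Mthfd2 by 0.26 (SE 0.11).

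Among 17 genes of cystine, cysteine and methionine supply, the glutamine transporter Slc1a5 differed most in thymocytes, at -0.73 (SE 0.40). It stood at 10.66 to 10.96 in WT and at 10.02 and 10.06 in ENK KO. Cth, which makes cysteine from cystathionine, differed by 0.23 (SE 0.13), and Slc7a5, another partner of Slc3a2, by 0.11 (SE 0.09). Glutathione turnover and transport was led by Glo1, the glyoxalase that uses glutathione, at -0.64 (SE 0.58). The thioredoxin and peroxiredoxin list was led by the mitochondrial peroxiredoxin Prdx3, at 0.34 (SE 0.14). Catalase (Cat, -0.16, SE 0.10), the selenoprotein Selenok (-0.18, SE 0.18) and the phospholipid enzyme Lpcat3 of the ferroptosis list (-0.26, SE 0.11) led the other lists by size.

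**Figure D4:**
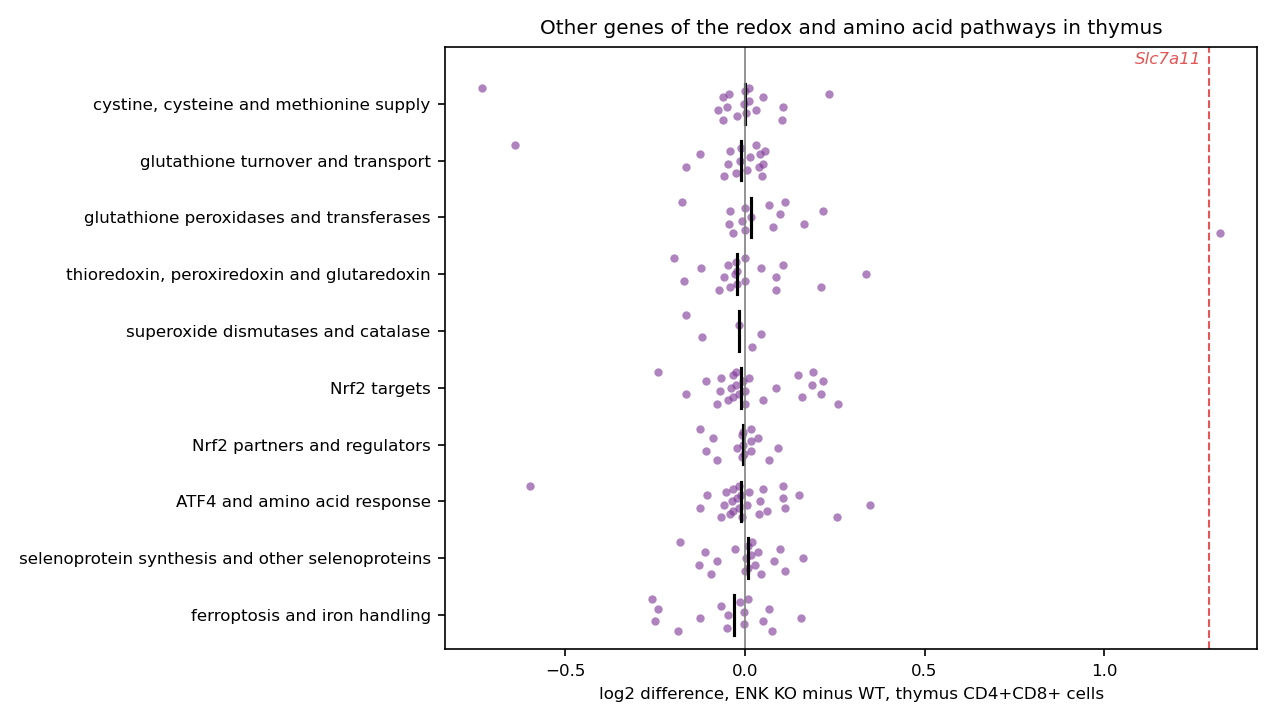
ENK KO minus WT log2 difference in thymus CD4+CD8+ cells (horizontal axis) of each tested gene of the 10 pathway lists (rows), with points for genes, short black lines for medians and a dashed line at the Slc7a11 value of 1.29. Mgst2 at 1.32 is the only point beyond that line, and the medians of the Nrf2 targets and the ATF4 list both lie at -0.01.

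In spleen cells the pathway genes had a median genotype difference of -0.01 and 11 (6.75%) had an unadjusted p under 0.05, against 8.37% of all genes tested. The largest in size was that of Asns, asparagine synthetase and an ATF4 target, at -0.63 (SE 0.15, adjusted p = 0.553), and -0.64 without replicate 28 (adjusted p = 0.433). The highest was that of Mgst2, at 0.59 (SE 0.33, adjusted p = 0.658), and 0.62 without replicate 28 (adjusted p = 0.575). Chac1, an ATF4 target that degrades glutathione, differed by -0.24 (SE 0.06, adjusted p = 0.595), and by -0.25 without it (adjusted p = 0.45). Of the 27 ATF4 and amino acid response genes 20 lay below 0 and 7 above in ENK KO spleen cells, and 0 passed. Their median was -0.03, against -0.01 over all genes tested. The ATF4 list was not alone in this, as 13 of 15 peroxidases and transferases lay below 0, while Nrf2 targets had 13 below and 13 above. The share of all genes below 0 was not computed. The peroxiredoxin Prdx2 differed by -0.44 (SE 0.17), or -0.54 without replicate 28, and the glutathione transferase Gsto1 by -0.26 (SE 0.09), or -0.23 without it, none past the threshold.

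Between the WT populations 59 of the 163 pathway genes rose and 51 fell in spleen cells, which is 67.5% against 68.6% of all genes tested. The ATF4 and amino acid response list had 16 genes that rose and 5 that fell of 27. Its highest difference was that of Asns (2.13), and those with the smallest p included Slc7a5 (1.98, SE 0.07) and the arginine transporter Slc7a1 (1.71, SE 0.07). Glutathione turnover and transport had 9 that rose and 3 that fell of 17, led by the exporter Abcc1 (2.20, SE 0.08) and the peptidase Lap3 (1.81, SE 0.11). Nrf2 targets had 6 that rose and 10 that fell of 26. Abcc1, also on this list, had the smallest p of them and rose. Next by p came thioredoxin (Txn1) at -0.82 (SE 0.04) and Gstm1 at -1.61 (SE 0.11). Of the repressors that compete with Nrf2, Bach2 rose by 2.73 (SE 0.09) while Bach1 fell by 1.55 (SE 0.05). Peroxidases and transferases had 7 that rose and 6 that fell of 15, and cystine supply had 5 and 6 of 17.

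The neighbours of Slc7a11 in gene order on chromosome 3 were read for the same thymus contrast. On its side toward lower gene order, Pgrmc2, Jade1, Sclt1 and D3Ertd751e differed by -0.12, -0.05, -0.12 and -0.21. On the other side, Noct, a circadian nucleotide phosphatase, averaged 8.46 in WT and 8.78 in ENK KO thymocytes, a difference of 0.31 (SE 0.07). Elf2, 4930577N17Rik and Ndufc1 followed with 0.17, -0.03 and 0.02. None of these 8 genes passed in spleen (adjusted p 0.595 to 0.978). Of the other members, Gclm is on chromosome 3 too, and the rest lie on chromosomes 2, 8, 9, 10 and 19.

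The genes whose deviations from their group means were most like those of Slc7a11 over the 14 arrays were Ndufaf6 (r = 0.86), Ugt8a (0.83), Ipcef1 (0.82), F8a (0.81) and Pnpla2 (0.80), and the most opposite were Snora16a (-0.89), Arc (-0.85), Itpka (-0.84), Brix1 (-0.84) and Map2k3 (-0.82). None of the members was among them. The other 9 members had r between -0.39 (Gpx4) and 0.25 (Nfe2l2), inside the range from -0.45 to 0.46 that held 90% of all genes tested. These are descriptions over 14 arrays of 4 groups, in which every spleen value of Slc7a11 lies under the filter level.

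Markers of other cell types were measured beside the thymus difference. Over 9 myeloid markers the mean level was 6.49 to 6.58 on WT and 6.50 to 6.61 on ENK KO thymus arrays, with 3 of 9 above the filter level on any array in each group. Csf1r, Adgre1, Cd14, Fcgr1 and S100a8 were under it in both. The 5 dendritic cell markers averaged 6.55 to 6.66 and 6.61 to 6.63, and the 5 B cell markers 7.01 to 7.15 and 7.04 to 7.14. The 5 double-positive thymocyte markers averaged 10.79 to 10.84 in WT and 10.84 to 10.93 in ENK KO thymocytes. The part of cell composition in the Slc7a11 difference was not tested.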

How the data were processed

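Expression was measured on 14 single-channel arrays of flow-sorted cells. The table the authors deposited holds log2 values per probe set, which the submitters' processing notes credit to RMA. This method subtracts background, equalises array distributions and combines probes, which compresses differences at low levels. The software, the build and whether arrays were normalized jointly were not given in the sources used here. Exact values recurred within a tissue, such as Lap3 at 6.6126 on several thymus arrays and at 8.3689 on several spleen arrays. If the tissues were summarised separately, differences between the populations cannot be told apart from that processing. Array medians ran from 7.14 to 7.25, and array pairs within a tissue correlated at 0.97 to 0.994.

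Of 28213 probe sets 21640 had 1 symbol in the platform annotation, 1321 several and 5252 none; 21553 of the 21640 matched a RefSeq gene table (GRCm38.p6) by gene ID and 0 symbols changed. Probe sets with 1 symbol were used, and for each of 954 genes with several the one with the highest mean over all arrays. Tests covered the 13641 genes that exceeded the 40th percentile of the table on 2 or more arrays. Group means over all arrays were fitted in limma 3.58.1 (R 4.3.3; lmFit, eBayes with a trend), which pools the spread. Benjamini-Hochberg adjustment ran over these genes, with 0.05 as the threshold, and errors of differences are its SE. The steps were tested on simulated data.

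The members and lists were chosen with earlier results of these data known. Besides the members, the text names genes for checks of labels and sort, up to 3 per list and comparison (smallest p, or largest difference in the thymus), the 5 most and 5 least similar to Slc7a11 and the 4 tested neighbours on each side. The labels do not say outright that samples are separate animals, so p-values measure the spread between samples, which may be technical. Alternatives covered the filter, normalization, probe set choice, variance model, covariates, left-out arrays and the threshold.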

Additional observations from a re-analysis of the deposited data

Results flagged for a closer look

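Several values stood apart. Gpx1 on spleen ENK KO replicate 25 (9.94) lay far below the other 4 arrays of its group, and Txnrd1 on spleen ENK KO replicate 28 (8.34) did the same. These were 2 of 20 groups of 4 or 5 arrays looked at, and chance alone marks about 1 in 20. Replicate 28 is the library whose coreceptor levels go against its label, and its part in the Txnrd1 value was not tested.

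In Slc7a11 (spleen effect minus thymus effect -1.47), Slc3a2 (-0.33) and Gsr (-0.19), every ENK KO array lay on opposite sides of the WT mean in thymus and spleen. Only the members were looked at for this pattern. Its share over all genes tested was not computed, so nothing is read from how many members showed it. That they lie on opposite sides was not tested as such. In the fitted contrast of effects Slc3a2 and Gsr did not pass, and the Slc7a11 value there is no independent test, since its thymus values chose the gene.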

How the results depend on the processing

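No paired analysis was possible because no replicate number occurs in more than 1 group. In the thymus genotype comparison 2 genes passed. That count was 24 with array weights, 0 with each tissue alone, 1 with age as a covariate, 4 without the 2-month-old animals, 5 without spleen ENK KO 28 and spleen WT 22, 42 at an unadjusted p with a fold of at least 1.5, and 1 to 14 with 1 array left out. Slc7a11, the 1 member among them, was chosen from this contrast. It was under the threshold with each tissue alone (0 members), and its difference ran from 1.08 to 1.498 over the alternatives. In spleen 1 gene passed, and 0 with the tissue alone, with sex or with age as a covariate, 2 without replicates 28 and 22, 27 by the unadjusted rule and 0 to 3 with 1 array left out; 0 members passed in each of these. Between populations the unadjusted rule with a fold left 3 members of 7 in WT (3756 genes of 9362) and 2 of 6 in ENK KO (3540 of 8789), and leaving out 1 array gave 5 to 8 and 4 to 6 members. For the contrast of genotype effects, the 1 gene past the threshold, Slc7a11 itself (1 member, no independent test), became 0 with sex or age, without the 2-month-old animals or without replicates 28 and 22. The genes were 2 with array weights and 40 by the unadjusted rule. With 1 array left out they numbered 0 to 5, and the members 0 to 1. Median centring ended the Gclc call between the WT populations (adjusted p = 0.0565), and quantile normalization added Txnrd1 there (0.046) and Gclc between the ENK KO populations (0.0461).

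Of the pathway lists, where 0 genes passed between genotypes, the ATF4 list had 1 in thymus with array weights and by the unadjusted rule and 1 in spleen by that rule, and the peroxidases and transferases had 1 in thymus by that rule.

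Many small differences turned sign. Gss in spleen was 0.0042 with array weights and 0.0064 without replicates 28 and 22, and ran from -0.0719 to 0.0081 with 1 array left out. Gclm in spleen was 0.0261 with age, 0.0557 without the 2-month-old animals and -0.0755 to 0.0123 with 1 array left out. Txnrd1 in spleen was 0.0079 without replicates 28 and 22. Gpx4 between the ENK KO populations was 0.0080 without the 2-month-old animals and -0.48 to 0.0056 with 1 array left out. In thymus, with no test, Gpx4 ran from -0.13 to 0.36, Nfe2l2 from -0.19 to 0.08, Txnrd1 from -0.10 to 0.02, Gclm from -0.07 to 0.09, Gsr from -0.01 to 0.08 and Gss from -0.0062 to 0.03. In the contrast of effects Gclm ran from -0.11 to 0.06, Gpx4 from -0.27 to 0.22 and Txnrd1 from -0.12 to 0.05. The cause was not tested. The 2 thymus ENK KO arrays limit the precision, and the level of Slc7a11 in spleen is under the filter level, so small differences there were not detectable.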
